A study of Homo sapiens with 6 samples.

Results

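The chloride intracellular channel (CLIC) family was examined in RNA from cultured thyroid cancer cells after knockdown of GDF15. Its 6 genes, CLIC1 to CLIC6, were taken by symbol from a table of 34738 genes, and each had a row. In the siGDF15 cells CLIC3 was expressed at 23.97 ± 2.503 FPKM against 1.97 ± 0.617 in the control cells (NC; mean ± SD, n = 3), whereas the 2 abundant members, CLIC1 and CLIC4, were lower in siGDF15. The family was chosen after the FPKM of its members in siGDF15 and NC had been seen, so their differences are given as a description without a test.

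CLIC proteins are unusual among chloride channels in that the same protein occurs as a soluble, globular form and as a form inserted in membranes. The soluble form has the fold of the omega-class glutathione transferases. CLIC1 and CLIC4 are found in most tissues, CLIC3 is known in cancer cells for returning integrins from late endosomes to the plasma membrane and for acting with transglutaminase 2 outside the cell, and CLIC2, CLIC5 and CLIC6 have narrower tissue distributions.

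Libraries came from 3 NC and 3 siGDF15 samples. The siGDF15 cells were transfected with an siRNA against GDF15, a secreted cytokine of the TGF-β superfamily, and no time after transfection was given in the labels. All 6 libraries are labelled as the line KHM-5M with thyroid cancer as the disease, while a legend of the study names TPC-1, and which line was sequenced was not settled here. The control is a negative control in the study's methods and a blank control in its deposited description, and the study's list of siRNAs includes a negative control siRNA. It was therefore unclear here whether siRNA was added to NC cells, and an effect of transfection cannot be told apart from that of the knockdown. The same list gives 1 siRNA against GDF15, so effects particular to that siRNA cannot be told apart from the knockdown either. The samples were called biological replicates in the study's methods, both groups come from 1 line by the labels, and the p-values below measure the spread between these samples.

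Poly(A) RNA was sequenced as read pairs of 150 bases. The summed expected counts per library were between 51738814 and 68025163, lowest in siGDF15 replicate 2. Among counts up to 20 the value 4 was the most frequent and was taken as 1 read pair, and 12 counts, or 3 read pairs, were taken as the level up to which a gene listed at 0 may reach, for counting error only. GDF15, the targeted gene, was measured at 22.4, 19.3 and 23.1 FPKM in NC and at 10.8, 10.5 and 10.7 FPKM in siGDF15. The groups did not overlap and the log2 fold change was -0.92 (standard error, SE, 0.079, edgeR adjusted p = 2.4e-05, and exact two-sided permutation p = 0.1, the smallest that 3 against 3 allows). That value did not reach the absolute log2 fold change of 1 used below for differential expression. Of the thyroid follicular markers 2 of 9, PAX8 and FOXE1, reached a mean of 1 FPKM, TSHR had no row, and thyroglobulin and thyroid peroxidase were near 0. The 6 epithelial markers were expressed, and 5 of 6 fibroblast markers, 1 of 6 immune markers (CD68) and 0 of 6 endothelial markers reached a mean of 1 FPKM. The summed thyroid follicular markers were at 57.0 to 67.98 FPKM in NC and 80.4 to 83.7 FPKM in siGDF15, a difference carried by PAX8 (means of 59.1 and 79.4 FPKM), while FOXE1 was at 2.76 and 2.83 FPKM. Mitochondrially encoded genes held 6.39 to 6.78% of counts in NC and 8.53 to 9.17% in siGDF15. The summed endothelial markers were at 0.265 to 0.316 FPKM in NC and 0.428 to 0.520 FPKM in siGDF15, the immune markers at 17.9 to 19.7 and 16.0 to 18.2 FPKM, the fibroblast markers at 30.3 to 39.4 and 31.8 to 37.1 FPKM, and the epithelial markers at 108 to 160 and 136 to 147 FPKM. The endothelial difference was mainly in TEK (means of 0.124 FPKM in NC and 0.320 in siGDF15), while the means of KDR, VWF and CLDN5 were lower in siGDF15. The part of these shifts in the CLIC values was not tested, and in bulk RNA a change in the share of cells cannot be told apart from a change in RNA per cell.

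Levels of the 6 members are compared as FPKM, which is scaled by transcript length. In both groups the order was CLIC1, CLIC4, CLIC3 and CLIC2, with CLIC5 and CLIC6 at or near 0. Neighbours in this order among CLIC1 to CLIC4 did not overlap in any library of either group. CLIC5 and CLIC6 could not be ordered at this depth. In rank by mean FPKM among the 11867 tested genes, CLIC1 stood at 121 in NC and 165 in siGDF15, CLIC4 at 272 and 375, and CLIC3 at 10023 and 1464.

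**Figure D1:**
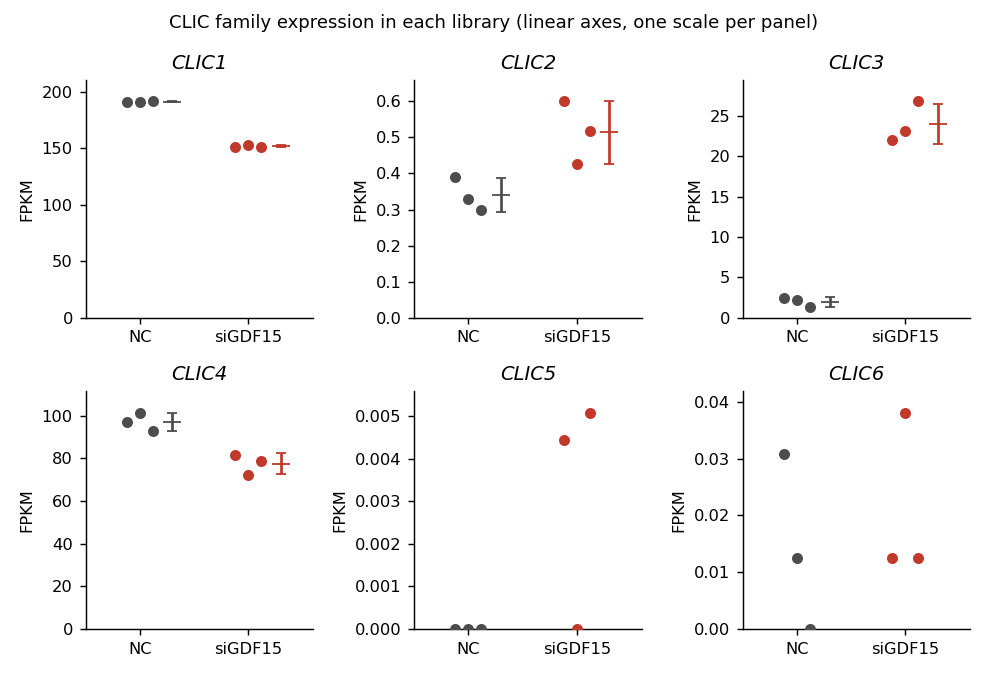
FPKM of each CLIC member in the 3 NC (grey) and 3 siGDF15 (red) libraries, on linear axes that start at 0 and differ between panels. Points are libraries, and a dash with a bar is the mean ± SD (n = 3), left out for CLIC5 and CLIC6. All 3 siGDF15 libraries lie above all 3 NC libraries for CLIC3 and CLIC2 and below them for CLIC1 and CLIC4.

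CLIC3 (ENSG00000169583) lies on the minus strand of chromosome 9 of GRCh38, from 136994608 to 136996568. It was measured at 2.48, 2.13 and 1.28 FPKM in NC replicates 1 to 3 and at 22.0, 23.1 and 26.8 FPKM in siGDF15 replicates 1 to 3. The groups were far apart, and NC replicate 3 was the lowest of the 6 libraries. The expected counts behind these values in NC were 182, 156 and 94, and those in siGDF15 were 1600, 1292 and 1946, all above the limit of 12 counts. The fitted log2 fold change was 3.70 (SE 0.21), or 13.02-fold. CLIC3 was the member with the largest relative spread in NC among the 3 tested members, and leaving out NC replicate 3 gave a log2 fold change of 3.48, while leaving out NC replicate 1 gave 3.91. On the scale of log2(FPKM + 1) the difference was 3.09, since the added 1 compresses low values.

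CLIC1 (ENSG00000213719, minus strand of chromosome 6, from 31730581 to 31737318) was measured at 191, 191 and 192 FPKM in NC and at 151, 153 and 151 FPKM in siGDF15. There was no overlap, and within a group the libraries differed by little, with means of 191 ± 0.436 and 152 ± 1.20 FPKM (SD, n = 3). The ratio of mean FPKM was 0.795, and the fitted log2 fold change was -0.23 (SE 0.040), or 0.855-fold, after TMM scaling of the libraries.

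CLIC4 (ENSG00000169504, plus strand of chromosome 1, from 24745382 to 24844321) was measured at 96.9, 101 and 92.8 FPKM in NC and at 81.5, 72.2 and 78.9 FPKM in siGDF15. Here too the highest siGDF15 library lay below the lowest NC library. The ratio of mean FPKM was 0.799, and the fitted log2 fold change was -0.22 (SE 0.053), or 0.859-fold. Without TMM scaling, which put the median over all tested genes at -0.099 in place of 0.00257, CLIC1 and CLIC4 lay further below 0, and over 15 alternative settings the log2 fold changes lay between -0.33 and -0.21 for CLIC1 and between -0.32 and -0.18 for CLIC4.

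CLIC2 (ENSG00000155962, minus strand of chromosome X, from 155276211 to 155334614), known as a modulator of ryanodine receptors, was measured at 0.391, 0.329 and 0.298 FPKM in NC and at 0.600, 0.426 and 0.517 FPKM in siGDF15. FPKM values of the groups did not overlap, although the gap between NC replicate 1 and siGDF15 replicate 2 was narrow. Its counts were between 64 and 129. With a mean of 0.427 FPKM it was below the filter of 1 FPKM. With the filter set at 0.1 FPKM, where 19360 genes were tested, its log2 fold change was 0.67 (SE 0.24).

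CLIC5 (ENSG00000112782, chromosome 6 from 45880827 to 46015860), a component of hair bundles and podocytes, had 0 counts in all NC libraries and 4, 0 and 4 counts in siGDF15. CLIC6 (ENSG00000159212, chromosome 21 from 34668994 to 34718227), described as binding dopamine receptors, had 10, 4 and 0 counts in NC and 4, 10 and 4 counts in siGDF15. All of these values were within the limit of 12 counts per library, so a difference was not detectable at this depth and no fold is given.

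Thus 3 of the 6 members passed the filter on low expression, and CLIC3, at 1.97 FPKM in NC, passed it in either group. The threshold applied below to other genes, an adjusted p-value under 0.05 in edgeR's quasi-likelihood test, is no test of genes chosen on these values. As a description, it placed CLIC3 among the 30% of all tested genes that were called higher and CLIC1 and CLIC4 among the 31.4% called lower. With an absolute log2 fold change of 1 or more as a second criterion, the study's definition of a differentially expressed gene, CLIC3 alone remained, against 3.03% of tested genes that were upregulated and 4.78% that were downregulated. The groups did not overlap for any of the 3 tested members, nor for 68.4% of all tested genes. Since the values of this contrast chose the family, nothing is read from these counts.

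The make-up of the family differed between the groups, mainly in CLIC3. The 6 members summed to 290 ± 4.36 FPKM in the NC group and 254 ± 4.39 in the siGDF15 group (mean ± SD, n = 3). CLIC3 made up 0.676 ± 0.207% (SD, n = 3) of this sum in NC and 9.43 ± 0.896% in siGDF15. CLIC1 made up 65.8 ± 1.123% in NC and 59.8 ± 1.49% in siGDF15, and CLIC4 33.4 ± 0.974% and 30.5 ± 1.47%. CLIC2 stayed at a small share, 0.117% in NC and 0.202% in siGDF15. By counts, which grow with transcript length, the share of CLIC3 was 0.237% in NC and 3.49% in siGDF15, and CLIC4 in place of CLIC1 held the largest share in both groups, 53.7 and 51.9%.

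The ratio between the 2 abundant members did not separate the groups. CLIC1 was 1.97, 1.88 and 2.06 times CLIC4 by FPKM in NC and 1.85, 2.12 and 1.92 times in siGDF15, and these ranges overlapped. CLIC1 was 76.8, 89.5 and 149 times CLIC3 in NC and 6.86, 6.64 and 5.65 times in siGDF15.

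**Figure D2:**
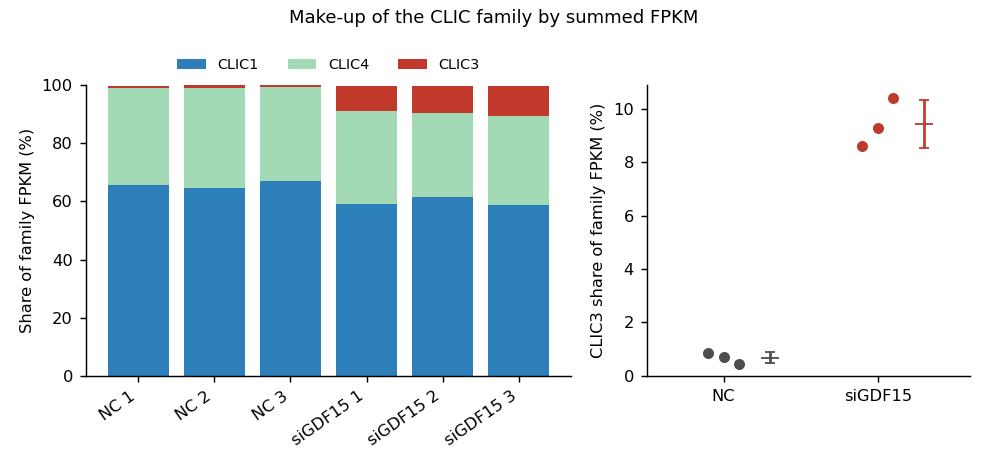
Left, share in percent of the summed FPKM of the 6 CLIC genes held by CLIC1, CLIC4 and CLIC3 in each library (CLIC2, CLIC5 and CLIC6 are too small to see and are not drawn). Right, the share of CLIC3 alone by library with the mean ± SD (n = 3), 0.676% in NC and 9.43% in siGDF15.

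Because members of a family can share reads, transcripts of the 6 genes were compared with each other in GENCODE release 29. The longest identical run between any 2 members was 24 bases, between CLIC4 and CLIC6, against reads of 150 bases. CLIC3 shared at most 12 bases with any other member. CLIC4 shared 190 bases with its pseudogene CLIC4P1 and 116 with CLIC4P3, and CLIC1 shared 104 with CLIC1P1. CLIC4P1 was listed at 0.465 to 1.49 FPKM, with the groups overlapping, and CLIC1P1 and CLIC4P3 had at most 8 counts in any library. A small exchange of reads between CLIC4 and CLIC4P1 is therefore possible, and its part in the CLIC4 value was not tested.

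The DNA just upstream of the RefSeq start sites of the 3 tested members is shown because these genes differed in direction between the groups. The 250 bases before the RefSeq start site (GRCh38.p14), present for 5 of the 6 members, were searched on both strands for the GC box GGGCGG, the sequence that SP1-family factors bind. CLIC3 had 3 matches, CLIC1 2 and CLIC4 2, and 42.6% of 35116 promoters in the same table had at least 1. CLIC2 had none, and CLIC5, at or near 0 counts, had 4 before its start site at 46015860 and none before its other start sites. The stretches below run 5′ to 3′ on the strand of the gene, with GC boxes on either strand in capitals. For CLIC1 and CLIC4 the part outside annotated exons is printed. The CLIC1 stretch lies inside the gene span of the deposited table, whose start site at 31737318 is upstream of the RefSeq start at 31736530. For CLIC3, where an exon of another annotated transcript covers most of the region, a window of 30 bases with 2 of its 3 GC boxes is printed.
CLIC3, chr9:136996609-136996638, minus strand: gGGGCGGgcccctcggccagggaGGGCGGg
CLIC1, chr6:31736573-31736780, minus strand: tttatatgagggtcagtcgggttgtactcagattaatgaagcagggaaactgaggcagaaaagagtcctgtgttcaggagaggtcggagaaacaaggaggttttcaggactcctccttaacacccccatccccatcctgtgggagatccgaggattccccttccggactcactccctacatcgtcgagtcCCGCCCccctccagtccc
CLIC4, chr1:24745197-24745356, plus strand: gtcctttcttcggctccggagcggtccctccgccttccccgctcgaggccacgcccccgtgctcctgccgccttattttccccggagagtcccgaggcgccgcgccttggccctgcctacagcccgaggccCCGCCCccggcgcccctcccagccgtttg
The GC content of the whole 250 bases was 70.4% for CLIC3, 57.6% for CLIC1 and 74.8% for CLIC4, and the median over all promoters was 58%. None of the 3 had a CCAAT box (CCAAT, found in 32% of promoters) or an E-box (CACGTG, 6.34%). CLIC1 had 1 TATA box sequence (TATAAA, 10.7% of promoters) and 1 AP-1 site (TGANTCA, 6.57%), and CLIC3 and CLIC4 had neither. The TATAAA of CLIC1 was on the opposite strand, 250 bases upstream at the far edge of the region searched. The p53 response element was searched by its consensus with a spacer of up to 13 bases. A match was found in 9 of 35116 promoters (0.0256%) and in 0 of the 5 members. So rare a match was unlikely to be found in 5 genes, and nothing is read from its absence. The shorter p53 motif, 1 repeat of that consensus, was found in 5.57% of promoters and in 0 of the 5 members. Here too 5 genes are too few for a comparison with this share. A match is a run of letters and not a bound site, and no protein binding was measured here.

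Genes around the members were examined next, to see whether the higher level of CLIC3 was shared by its surroundings. Within 100 kb of CLIC3, 9 genes were tested, of which 5 were called higher and 4 lower, with a median log2 fold change of 0.32. Of all tested genes 30% were called higher and 31.4% lower, so nothing is read from these counts. PAXX, a DNA end-joining factor whose span on the plus strand ends 624 bp below that of CLIC3, was measured at 24.1, 23.2 and 24.9 FPKM in NC and at 12.1, 14.6 and 13.8 FPKM in siGDF15. The log2 fold change of PAXX, the nearest gene to CLIC3, was -0.73 (SE 0.086, edgeR adjusted p = 1.4e-04), opposite in sign to that of CLIC3. Its groups did not overlap, nor did those of 68.4% of all tested genes. A cause shared by CLIC3 and its neighbours was not tested.

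On the other side ABCA2, a lipid transporter 10666 bp away, was measured at 11.8, 13.6 and 9.65 FPKM in NC and at 13.7, 13.6 and 13.8 FPKM in siGDF15. Its groups overlapped, and its log2 fold change of 0.34 (adjusted p = 0.021, edgeR) was lost as a call in 7 of the 15 alternative settings. Of the others, SAPCD2, a regulator of spindle orientation, was downregulated (log2 fold change -1.81) and the lncRNA gene MAN1B1-DT upregulated (1.33). MAN1B1-DT was at a mean of 0.727 FPKM in NC and 1.70 in siGDF15. It thus passed the filter of 1 FPKM through its siGDF15 values, and its call is limited by that selection. No tested neighbour had a log2 fold change as large as that of CLIC3, whose family was chosen with its values known.

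Within 100 kb of CLIC1, in the major histocompatibility region, 18 genes were tested, of which 3 were called higher and 8 lower, with a median log2 fold change of -0.20. The shares over all tested genes were 30% called higher and 31.4% lower. DDAH2, an enzyme that breaks down methylated arginines, overlaps CLIC1 by 37 bases on the same strand, and the counting of reads there was not stated. It was measured at 8.16, 10.2 and 7.47 FPKM in NC and at 14.3, 14.9 and 15.4 FPKM in siGDF15. The groups did not overlap, and its log2 fold change of 0.89 (SE 0.11, edgeR adjusted p = 1.6e-04) was opposite in sign to that of CLIC1. On the other side MSH5, a meiotic homologue of mismatch repair proteins, lies 2359 bp away and fell with a log2 fold change of -0.90 (adjusted p = 4.5e-05, edgeR). The downregulated genes near CLIC1 were HSPA1B (-1.56) and HSPA1A (-1.33), near-identical heat shock genes between which reads may be split, MSH5-SAPCD1 (-1.15), a readthrough that overlaps MSH5, and ENSG00000263020 (-2.37), and their calls are uncertain where reads are shared. ENSG00000263020 was at a mean of 3.40 FPKM in NC and 0.603 in siGDF15, so it passed the filter through its NC values.

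Near the other members few genes were tested. SRRM1, the only tested gene near CLIC4, fell with a log2 fold change of -0.39 (adjusted p = 1.0e-04, edgeR). Near CLIC2, VBP1 fell by 0.72 on the log2 scale, and TMLHEP1, a pseudogene with overlapping groups, had a value of 1.16 that was not called (adjusted p = 0.052, edgeR). Near CLIC6, RCAN1 was not called, and RUNX1 had a log2 fold change of 0.22 (adjusted p = 0.028, edgeR) with overlapping groups, a call lost in 9 of the 15 alternative settings. CLIC5 had no other row within 100 kb. In all, of 33 tested neighbours 9 were called higher (27.3%) and 14 lower (42.4%), with a median log2 fold change of -0.11, beside 30% and 31.4% and a median of 0.00257 for all tested genes.

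**Figure D3:**
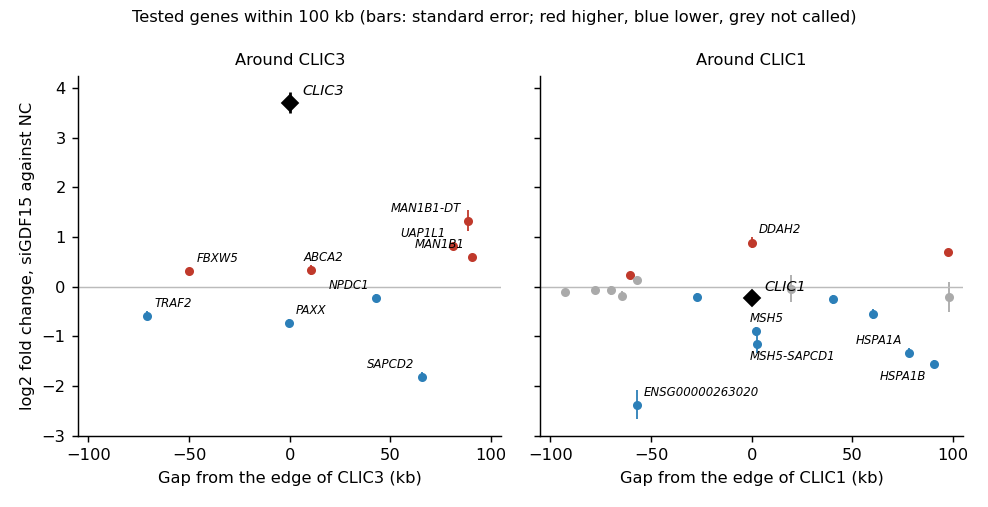
log2 fold change of siGDF15 against NC, with its SE, for the tested genes within 100 kb of CLIC3 (left, 9 genes) and CLIC1 (right, 18 genes), by the gap in kb from the edge of the CLIC gene, which is the black diamond at 0. Around CLIC3 5 genes are higher (red) and 4 lower (blue), all closer to 0 than CLIC3 at 3.70, which was chosen with its value known. Of all tested genes 30% were called higher and 31.4% lower.

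A list of 33 genes whose proteins are known to bind or act with CLIC proteins was compiled, with 31 in the table and 25 tested. Of these 4 were called higher (16%) and 12 lower (48%), and the median log2 fold change was -0.16, beside 30%, 31.4% and 0.00257 for all tested genes. The number called higher was 1 without TMM scaling, with limma on FPKM and with no filter. None met the criteria for differential expression. AKAP9, MAPK15, RAB25, RYR1, RYR2 and DRD4 were below the filter, so that RAB25, the small GTPase known to act with CLIC3 in integrin recycling, could not be tested.

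TGM2, transglutaminase 2, a cross-linking enzyme known as a partner of secreted CLIC3, was measured at 104.9, 116 and 94.5 FPKM in NC and at 160.2, 160.6 and 154 FPKM in siGDF15. TGM2 did not overlap between groups and was the partner with the largest rise, with a log2 fold change of 0.69 (SE 0.069, edgeR adjusted p = 5.4e-05). The integrin subunits that CLIC3 and CLIC4 help to recycle differed in direction of the estimate, with ITGA5 at -0.34 (called lower) and ITGB1 at 0.11 (not called, adjusted p = 0.068, edgeR). MMP14, a membrane-bound matrix protease recycled with CLIC3, was measured at 117, 151 and 99.7 FPKM in NC and at 109.6, 103 and 107 FPKM in siGDF15. Its groups overlapped, it was not called (log2 fold change -0.10), and without NC replicate 2 the estimate was 0.075.

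The 14-3-3 proteins are phosphoserine-binding adaptors that bind CLIC4. Of the 6 tested genes for them in the list, 5 were called lower, namely YWHAZ, YWHAQ, YWHAG, YWHAH and YWHAE, and YWHAB was not. Among all tested genes 31.4% were called lower. The 14-3-3 subgroup was singled out after its values were seen, and the count covers the listed genes only, not the whole 14-3-3 family. YWHAZ was measured at 138, 143 and 136 FPKM in NC and at 80.0, 75.6 and 76.8 FPKM in siGDF15. All siGDF15 libraries were lower, and its log2 fold change of -0.74 (SE 0.040, edgeR adjusted p = 2.1e-06) was the largest fall in the list. YWHAQ had a log2 fold change of -0.40 and YWHAG of -0.34. DNM1, a dynamin that pinches off vesicles, fell by 0.61 on the log2 scale, from 14.8 ± 0.887 to 9.01 ± 0.334 FPKM (SD, n = 3).

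The ezrin, radixin and moesin proteins, which tie actin to the membrane and with which CLIC4 and CLIC5 act, had log2 fold changes of 0.02 for EZR (not called), -0.16 for RDX and -0.20 for MSN, both called lower.

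A list of 40 genes for other chloride channels and their subunits had 38 in the table and 19 tested. Of these 9 were called higher (47.4%) and 5 lower (26.3%), with a median log2 fold change of 0.12, beside 30%, 31.4% and 0.00257 for all tested genes. Without TMM scaling, and with limma at either pseudocount, 6 were called higher and 6 lower, and without NC replicate 1 the number called higher was 6. The upregulated genes were LRRC8E, a subunit of the volume-regulated anion channel, and CLCN7, the lysosomal chloride and proton exchanger. LRRC8E was measured at 10.6, 10.7 and 8.82 FPKM in NC and at 19.7, 20.7 and 20.7 FPKM in siGDF15, with a log2 fold change of 1.13 (SE 0.076, edgeR adjusted p = 6.2e-06). CLCN7 was measured at 12.7, 12.6 and 12.2 FPKM in NC and at 22.8, 22.7 and 24.5 FPKM in siGDF15, with a log2 fold change of 1.01 (SE 0.046, edgeR adjusted p = 1.0e-06). CLCN7 thus passed the limit of 1 narrowly. It was below 1 without TMM scaling (0.90), with limma (0.85 and 0.90), with a filter of 0.1 FPKM (0.98) and with no filter (0.95). The same held without NC replicate 3 (0.99) or siGDF15 replicate 3 (0.98), while CLCN7 was still called higher in these settings.

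In both genes the groups did not overlap, and both values were below the 3.70 of CLIC3, a gene chosen with its value known. OSTM1, the partner subunit of CLCN7, was called higher (0.40), as were ANO10 (0.67) and the endosomal exchanger CLCN3 (0.48). Of the volume-regulated channel subunits LRRC8C (-0.81) and LRRC8B (-0.47) were called lower, LRRC8D (-0.06) was not called, LRRC8E rose as above, and the obligatory subunit LRRC8A was called higher (0.16, with overlapping FPKM groups). CLCN5 (-0.83), ANO8 (-0.60) and CLCC1 (-0.34) were called lower, and CLNS1A (0.12) and ANO6 (-0.11) were not called. CLCN5, at a mean of 1.63 FPKM in NC and 0.853 in siGDF15, passed the filter through its NC values.

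A list of 24 glutathione transferase genes, whose fold the CLIC proteins share, had 20 in the table and 10 tested. Of these 4 were called higher (40%) and 2 lower (20%), with a median log2 fold change of -0.06, against the same shares for all tested genes. GSTO1, the omega-class enzyme closest to the CLIC fold, was measured at 53.9, 52.6 and 54.7 FPKM in NC and at 44.8, 42.7 and 46.2 FPKM in siGDF15. GSTO2, the other omega-class gene of the list, was below the filter (mean 0.0716 FPKM). For GSTO1 the groups did not overlap. It was called lower, as were 31.4% of all tested genes, with a log2 fold change of -0.16 (SE 0.047, edgeR adjusted p = 0.014). The call was lost without NC replicate 1 (adjusted p = 0.061, edgeR) and without siGDF15 replicate 2 (adjusted p = 0.073, edgeR). GSTCD was downregulated (-1.29), MGST1 (0.50), GSTK1 (0.35), GSTM4 (0.76) and GSTA4 (0.34) were called higher, and GSTP1 (0.01) and MGST3 (-0.20) were not called. GSTM4 was at a mean of 0.831 FPKM in NC and 1.31 in siGDF15. It passed the filter through its siGDF15 values, which limits its call and the share called higher. The GSTA4 call was lost in 6 of the 15 alternative settings, among them no TMM scaling, the replicate block and leaving out NC replicate 2, siGDF15 replicate 2 or siGDF15 replicate 3, with adjusted p between 0.054 and 0.11 in edgeR. GSTP1, the most abundant member of this list, had an estimate whose sign changed with the scaling.

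**Figure D4:**
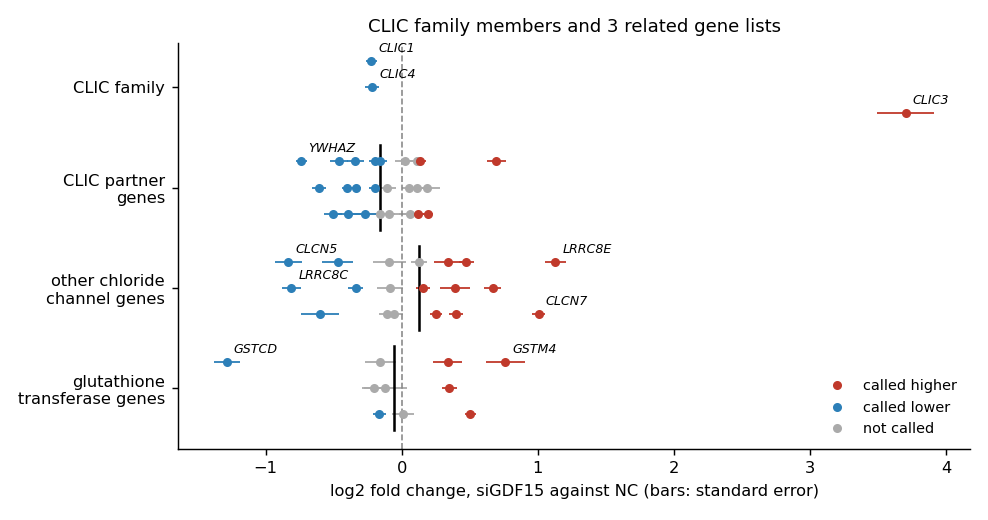
log2 fold change of siGDF15 against NC, with its SE, for the 3 tested CLIC members and the tested genes of the 3 lists. Black lines are list medians (-0.16, 0.12 and -0.06) and the dashed line is the median of all tested genes, 0.00257. CLIC3, chosen with its value known, lies to the right of every gene of the lists.

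The genes whose pattern over the 6 libraries was closest to that of a member were found by the root mean square difference in log2(FPKM + 1) after each gene was centred on its mean. They were chosen by these values, so no test is given. For CLIC3 they were H2AC6 (difference 0.176), C3 (0.183), H2BC4 (0.245), H2BC5 (0.331) and H1-2 (0.460). H2AC6, H2BC4, H2BC5 and H1-2 encode histones, and C3 is the central complement component. H2AC6 was measured at 4.201, 4.74 and 4.15 FPKM in NC and at 42.8, 41.8 and 47.9 FPKM in siGDF15. C3 was measured at 10.6, 12.9 and 8.01 FPKM in NC and at 76.7, 82.1 and 82.8 FPKM in siGDF15. In C3, H2AC6 and H2BC4, as in CLIC3, NC replicate 3 was the lowest library, while in H2BC5 and H1-2 it was the highest of the NC libraries. The genes were chosen on these values, so nothing is read from this order.

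**Figure D5:**
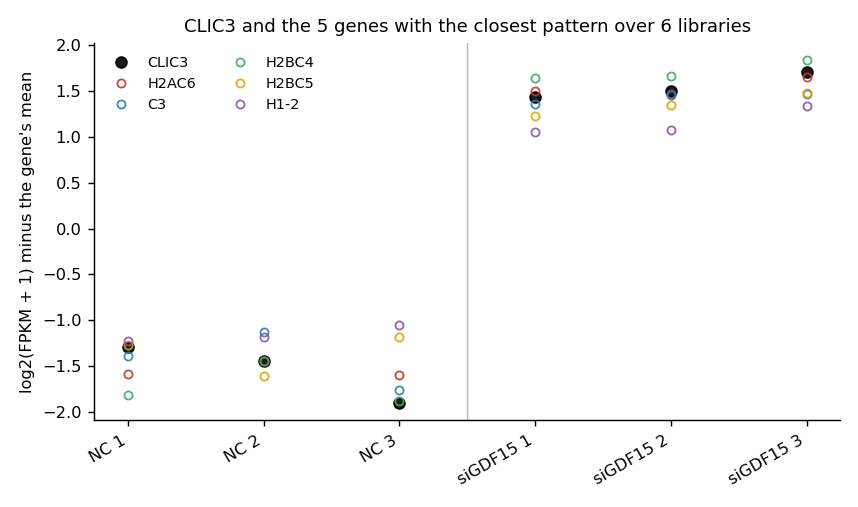
log2(FPKM + 1) of CLIC3 (black) and the 5 genes with the closest pattern (open circles), each minus its own mean over the 6 libraries. All 6 genes lie below 0 in the NC libraries and above 0 in the siGDF15 libraries.

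For CLIC1 the closest genes were LMNA (0.0103), KLHL8 and DDX39B. LMNA, the lamin A gene, was measured at 91.1, 90.0 and 90.8 FPKM in NC and at 71.4, 72.4 and 72.9 FPKM in siGDF15. For CLIC4 they were GNA13, MYNN and DCUN1D1, and GNA13, the α subunit of a G protein, was measured at 11.2, 11.9 and 10.96 FPKM in NC and at 9.43, 8.29 and 9.02 FPKM in siGDF15. As in CLIC4, NC replicate 2 was the highest and siGDF15 replicate 2 the lowest library of GNA13, MYNN and DCUN1D1. These genes were chosen for their closeness to CLIC4 over the libraries, so nothing is read from this shared order.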

How the data were processed

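The authors trimmed reads with fastp, aligned them to GRCh38 with HISAT2 and quantified them with StringTie, per the labels and methods (versions and strand setting not given in the sources used here). The deposited table holds an FPKM value per gene and library, and an expected count that the authors derived from coverage. These expected counts are whole numbers and were not normalized. No column with values per sample was left out. The deposited table was tested with edgeR 4.0.16 (R 4.3.3): quasi-likelihood test, TMM, no covariate, and Benjamini-Hochberg adjustment over 11867 genes, those at a mean of 1 FPKM or more. That mean was over all 6 libraries, so a gene below 1 FPKM in 1 group could pass through the other. A gene was called at an adjusted p-value under 0.05 and taken as differentially expressed with a log2 fold change of at least 1 as well. The code was tested on simulated data. Alternatives used DESeq2 1.42.0, limma 3.58.1, other filters and scalings, the replicate number as a block, and each library left out. Figures used matplotlib 3.10.9.

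The members and lists were chosen with earlier results of these data known. Genes named were the 6 members and GDF15. In each list they were up to 4 called higher and 4 lower by adjusted p and the 2 most expressed genes not called. Near members they were the nearest tested gene on each side and every differentially expressed gene. Of genes closest in pattern, 5 were named for CLIC3 and 3 for CLIC1 and CLIC4. ITGA5, the ezrin family, the other 14-3-3 genes, OSTM1, LRRC8A, LRRC8B and LRRC8D were added after their values were seen. Sequences are from RefSeq. Some genes of the partner list that the rule would name are not reported here.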

Additional observations from a re-analysis of the deposited data

How the results depend on the processing

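Under 15 alternatives the CLIC3 log2 fold change lay between 3.09 and 3.91. In shares of counts CLIC3 held 0.237% of the family in NC and 3.49% in siGDF15. The partners called higher numbered 1 without TMM scaling, 1 with limma at either pseudocount and 1 with no filter, and 2 to 6 with a library left out (2 without NC replicate 1, siGDF15 replicate 2 or siGDF15 replicate 3). The glutathione transferases called higher numbered 7 with a filter of 0.1 FPKM, where more genes were tested, and those called lower 1 to 3 with a library left out (1 without NC replicate 1 or siGDF15 replicate 2). Within 50 kb of a member 3 genes were called higher and 7 lower, and within 200 kb 14 and 22, as fewer or more genes were counted. The numbers tested at these distances are not given here. No share can therefore be set beside the 30% called higher and 31.4% called lower of all tested genes. The MMP14 log2 fold change was between -0.22 and 0.075 with a library left out (0.075 without NC replicate 2). The GSTP1 log2 fold change was -0.092 without TMM scaling, -0.091 and -0.092 with limma at pseudocounts of 1 and 0.1, -0.022 with a filter of 0.1 FPKM, -0.045 with no filter, and between -0.058 and 0.097 with a library left out. The RCAN1 log2 fold change was -0.035 without TMM scaling and -0.030 and -0.038 with limma. For these the cause was not tested. Same-numbered libraries did not deviate together (correlations 0.0845, -0.0756 and 0.00706). With the replicate block 6906 in place of 7286 genes were called, 3 partners were higher and 11 lower, and the CLIC3 log2 fold change was 3.73. Dividing counts by 4, chosen after seeing the data, gave 3.69. CLIC5 and CLIC6 are limited by depth.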
